A study of Mus musculus with 167 samples.

Results

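The genes described here are the enzymes that make cholesterol, the proteins that sense sterols and set the rate of that synthesis, and the transporters that export sterols, in mouse liver. They were chosen by name and make up 27 genes, set against 18193 genes with a probe set of their own in the array platform's annotation. They comprise 18 sterol synthesis enzymes, 1 branch enzyme, 4 control genes, 1 intracellular sterol carrier and 3 sterol exporters. For each gene the probe set with the highest mean over all arrays was used. Acat2, a thiolase of acetoacetyl-CoA formation, was not analysed here, which left 26 members and 17 of the 18 synthesis enzymes. All 26 passed the filter on dim genes.

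Cholesterol is built from acetyl-CoA through mevalonate, farnesyl diphosphate, squalene and lanosterol. When sterols in the endoplasmic reticulum are low, SCAP escorts the transcription factor SREBP2 (gene Srebf2) to the Golgi, where it is cleaved and freed to switch on nearly every enzyme of the pathway, whereas INSIG proteins hold SCAP back when sterols are high. Export runs the other way: ABCA1, ABCG5 and ABCG8 are induced by the oxysterol receptors LXR, and ABCG5 and ABCG8 together move sterols from hepatocytes into bile.

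The study compared mouse livers with and without phenobarbital, a barbiturate that activates the nuclear receptor CAR, in 3 genotypes that differ in CAR and its relative PXR. RNA from powdered liver (left, caudal and median parts) of male C57BL/6 mice, labelled as 9 to 11 weeks old (the protocol text gives another age at the start of dosing), was hybridised to 167 whole-genome arrays. Wild-type mice had their own receptors. CAR/PXR KO mice (strain CARKO-PXRKO) lacked both and are called knock-out, and CAR/PXR h mice (strain CARh-PXRh) carried the human receptors and are called humanized; what drives the human receptors is not given in the sources used here. Treated mice drank phenobarbital at 0.05% in water per the protocol text, which also lists lower concentrations, while no sample label gives a dose. Livers of both arms were taken after 1, 7, 14, 28 and 91 days of dosing, and at day 119, when 4 weeks without the drug had followed 13 weeks with it. There were 27 control and 29 treated wild-type arrays, 27 and 28 knock-out arrays, and 29 and 27 humanized arrays, in groups of 3 to 5 animals.

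Array medians lay between 5.15 and 5.23 on the log2 intensity scale, and hepatocyte markers were high in all 6 arms, with arm means of 13.94 to 14.07 over the 7 of 8 markers tested. Mouse CAR (Nr1i3) was at 8.34 ± 0.27 (SD, n = 56) in wild type, 4.95 ± 0.15 (n = 55) in knock-out and 5.07 ± 0.15 (n = 55) in humanized livers. Mouse PXR (Nr1i2) was at 7.55 ± 0.25, 3.63 ± 0.14 and 3.72 ± 0.18 in the same order. Arrays 6026 and 6030 of the treated humanized group of day 119 held nearly the same values, so their mean entered the fit as a single animal, and 166 samples remained. Arrays 4019 and 4024 were just as close but are labelled with different days, 28 and 91, and were kept as labelled. Markers of pancreatic acinar cells, which liver should lack, had a mean level over 7 in 27 of the 166 samples, among them 4 of 5 controls and 2 of 5 treated wild-type animals of day 1. In such bulk tissue, fewer cells of a type and less RNA per cell cannot be told apart.

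In wild-type liver, on the mean of the dosing days, nearly the whole synthesis pathway was higher with phenobarbital and the sterol exporters were lower. Averaged over the 5 dosing days, 16 of the 17 synthesis enzymes were called higher in treated than in control animals and 1, Ebp, was called lower (limma, Benjamini-Hochberg adjusted p below 0.05 over all 12622 genes tested). Of all genes tested, 11.8% were called higher and 19.7% lower in that comparison of 24 treated with 22 control animals. The median log2 difference was 0.45 over the synthesis enzymes and -0.01 over all genes. All 3 exporters were lower, and of the 4 control genes 2 were higher and 1 was lower. Differences below are on the log2 scale, treated minus control, with the standard error (SE) of the fit.

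Among the early enzymes, Hmgcs1, which makes HMG-CoA for the mevalonate route, was higher by 0.62 (SE 0.104), and Mvd, the decarboxylase that yields isopentenyl diphosphate, by 0.69 (SE 0.144). Of the kinases between them, Mvk was higher by 0.23 and Pmvk by 0.26. Pmvk sat near the threshold, with an adjusted p of 0.0422 in limma that passed 0.05 when any of 21 of the 46 animals was left out. Idi1, which isomerises isopentenyl diphosphate, was higher by 0.51, and Fdps, which builds farnesyl diphosphate, by 0.59. Ggps1, the branch enzyme that diverts farnesyl diphosphate to geranylgeranyl diphosphate, differed by -0.02 and was not called.

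The squalene step held the largest change among the synthesis enzymes. Sqle, the squalene epoxidase that is a rate-limiting enzyme of the later pathway, was higher by 1.22 (SE 0.151, limma adjusted p = 1.72e-11), a 2.34-fold difference. Its level averaged 8.08 ± 0.70 (SD, n = 22) in controls and 9.33 ± 0.53 (n = 24) in treated animals of the dosing days. Fdft1, squalene synthase, was higher by 0.52 and Lss, which closes squalene epoxide into lanosterol, by 0.45.

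Of the enzymes that trim lanosterol to cholesterol, Msmo1, the C4-methyl sterol oxidase, led with 0.86 (SE 0.106, limma adjusted p = 1.81e-11), or 1.82-fold. Its partners in C4 demethylation, Nsdhl and Hsd17b7, were higher by 0.41 and 0.46, and the C14 demethylase Cyp51 by 0.41. Dhcr7, the last reductase of the pathway, was higher by 0.35, Sc5d, the C5 desaturase, by 0.27 and Tm7sf2, a C14 sterol reductase, by 0.16. Ebp, the sterol isomerase, was the enzyme called lower, at -0.10 (SE 0.0334, limma adjusted p = 0.0152). Without the animals with high acinar markers the Ebp difference was -0.05 and was not called (adjusted p = 0.474), while 16 synthesis enzymes were still called higher.

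**Figure D1:**
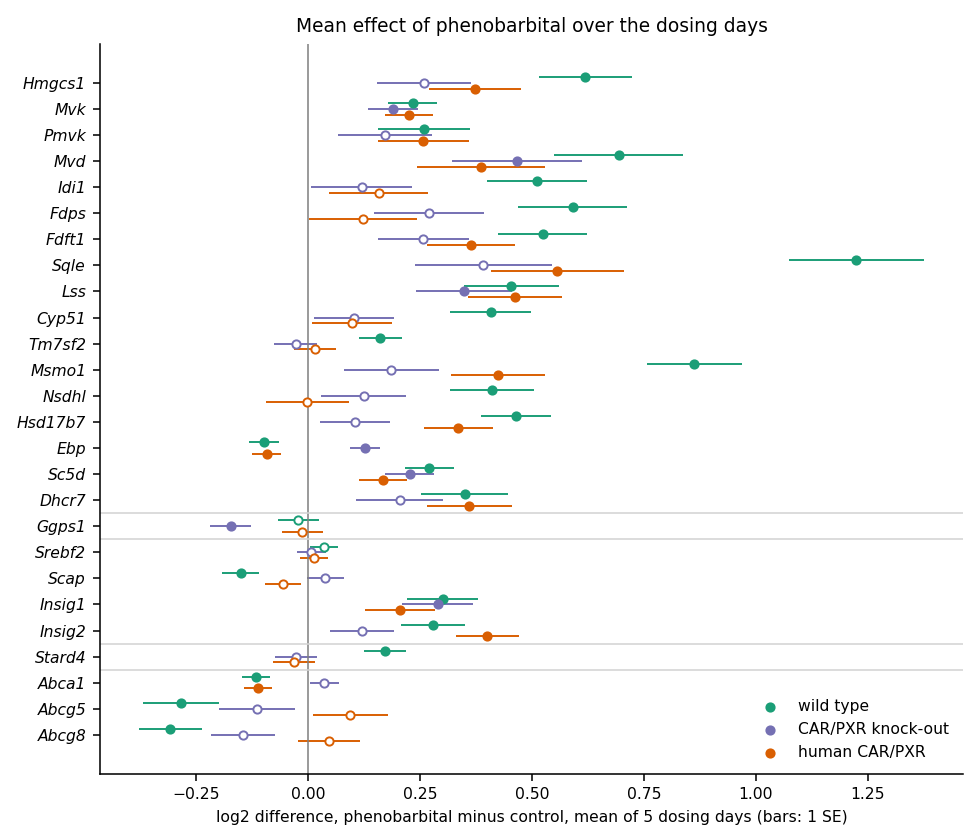
Log2 difference, phenobarbital minus control, averaged over the 5 dosing days for the 26 members in wild-type, knock-out and humanized livers; points are estimates, bars are 1 SE of the limma fit, and filled points passed adjusted p below 0.05. In wild type 16 of 17 synthesis enzymes are filled and to the right of 0, with Sqle farthest at 1.22, and the 3 exporters are filled and to the left.

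The control genes did not move as a block. Srebf2, which encodes SREBP2 itself, differed by 0.04 and was not called. Insig1, an SREBP2 target that restrains SCAP, was higher by 0.30 (SE 0.0787) and Insig2, the isoform abundant in liver, by 0.28 (SE 0.0709), while Scap was called lower at -0.15 (SE 0.0408). The Scap call was lost when its probe sets were averaged (-0.11, adjusted p = 0.0696). Stard4, a carrier of free cholesterol within the cell, was higher by 0.17 (SE 0.0467).

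Averaged over the dosing days the exporters went the other way, although none was called on a single day after day 1. Abcg5 differed by -0.28 (SE 0.0839, limma adjusted p = 0.00494), Abcg8 by -0.31 (SE 0.0703, adjusted p = 0.000234) and Abca1, which loads cholesterol onto apolipoprotein A1, by -0.12 (SE 0.0314, adjusted p = 0.00194). Averaging the probe sets of Abca1 gave -0.07 and no call (adjusted p = 0.267).

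Promoter sequences were looked at because these members moved together and because SREBP2 acts through a sterol regulatory element. RefSeq windows of 300 bases, 250 before to 50 after the transcription start (GRCm38.p6), were present for 23 of the 27 members, 5 of which had several windows. Sqle, Fdps, Fdft1 and Stard4 had no window and were not searched. TCACNCCA, the core of a sterol regulatory element, was found on either strand in 3 of the 23 members and in 4.36% of all 32851 windows. CCAAT, bound by NF-Y, was found in 20 of 23 members and 37.4% of all windows, and GGGCGG, bound by Sp1, in 19 of 23 members and 35.7% of windows; the motifs share no bases where they are marked below. A member counted if any of its windows matched, and a match describes letters only. The 3 members with TCACNCCA were Msmo1 (chr8:64733529-64733828, minus strand), Hmgcs1 (chr13:119690101-119690400, plus strand) and Srebf2 (chr15:82147019-82147318, plus strand). They are shown because Msmo1 and Hmgcs1 were among the most responsive enzymes and Srebf2 did not pass the test. Capitals mark the 3 motifs on either strand.
Msmo1: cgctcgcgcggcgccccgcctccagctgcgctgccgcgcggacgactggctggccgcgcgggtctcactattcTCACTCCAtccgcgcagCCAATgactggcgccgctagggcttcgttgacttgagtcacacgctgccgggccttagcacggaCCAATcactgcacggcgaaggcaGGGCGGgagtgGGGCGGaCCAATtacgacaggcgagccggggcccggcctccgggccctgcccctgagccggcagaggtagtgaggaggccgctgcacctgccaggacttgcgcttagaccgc
Hmgcs1: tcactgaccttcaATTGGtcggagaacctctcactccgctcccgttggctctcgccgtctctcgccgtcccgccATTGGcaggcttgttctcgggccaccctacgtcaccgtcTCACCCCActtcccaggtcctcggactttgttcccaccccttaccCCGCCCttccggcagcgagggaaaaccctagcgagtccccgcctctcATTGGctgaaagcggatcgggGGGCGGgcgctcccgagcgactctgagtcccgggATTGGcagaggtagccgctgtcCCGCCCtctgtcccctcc
Srebf2: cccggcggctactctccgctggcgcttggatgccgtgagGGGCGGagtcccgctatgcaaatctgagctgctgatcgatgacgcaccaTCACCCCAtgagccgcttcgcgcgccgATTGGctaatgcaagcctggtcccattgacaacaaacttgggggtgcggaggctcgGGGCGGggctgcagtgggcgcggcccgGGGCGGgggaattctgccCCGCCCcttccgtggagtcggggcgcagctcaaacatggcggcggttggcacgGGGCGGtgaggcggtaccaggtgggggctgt
The first base of TCACNCCA lay at -177, -137 and -162 from the start in Msmo1, Hmgcs1 and Srebf2.

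Abcg5 and Abcg8, which fell together, lie head to head on chromosome 17, and their promoter windows overlap. The Abcg8 window (chr17:84682871-84683170, plus strand, GRCm38.p6, 1 of its windows in RefSeq) is shown to make this visible, a choice made after the values were seen. Capitals mark the 209 bases it shares with the Abcg5 window (chr17:84682962-84683261, minus strand).
Abcg8: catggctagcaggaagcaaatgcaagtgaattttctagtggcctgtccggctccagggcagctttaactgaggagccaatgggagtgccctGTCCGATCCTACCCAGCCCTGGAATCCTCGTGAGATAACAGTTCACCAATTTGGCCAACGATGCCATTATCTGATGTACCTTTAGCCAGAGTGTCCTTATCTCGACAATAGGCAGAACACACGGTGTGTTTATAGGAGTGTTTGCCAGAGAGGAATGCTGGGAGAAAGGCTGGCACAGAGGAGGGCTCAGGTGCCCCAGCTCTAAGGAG

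By day, wild-type liver had the most calls on day 1. On day 1, 16 of the 17 synthesis enzymes were called higher (5.02% of all genes were), with a median difference of 0.95. Every treated animal lay above every control for 13 of the 17, a separation found for 3.49% of all genes; the exceptions were Idi1, Tm7sf2, Nsdhl and Ebp. On day 7 the count was 0 (2.11% of genes were called higher; 2 enzymes at an unadjusted p below 0.05 in limma), on day 14 6 were called (3.11%), and on day 28 2 were called (3.61%). On day 91 the count was 0 (1.45%; 0 higher and 1 lower at an unadjusted p below 0.05). The median difference over the synthesis enzymes was 0.23 on day 7, 0.59 on day 14, 0.39 on day 28 and 0.09 on day 91. Whether the effect of day 91 differed from that of day 1 was tested for each enzyme, and none of the 17 was called (median change -0.86, lowest adjusted p = 0.0893, 16 lower at an unadjusted p below 0.05).

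For Sqle, the wild-type controls of day 1 were at 7.16, 7.54, 6.99, 7.55 and 7.97, and the treated animals at 9.42, 10.05, 8.52, 9.96 and 9.80. The groups did not overlap, and the lowest treated animal still lay above the highest control. The difference was 2.11 (SE 0.322, limma adjusted p = 2.25e-07), or 4.31-fold.

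For Hmgcs1, the day 1 controls were at 11.29, 11.65, 11.21, 11.38 and 11.73 and the treated animals at 12.72, 12.68, 12.30, 13.09 and 12.78, with no overlap. The difference was 1.26 (SE 0.221, limma adjusted p = 8.17e-06), or 2.40-fold. Msmo1 was at 10.02, 10.44, 9.89, 10.22 and 10.53 in controls and 11.67, 11.83, 10.75, 11.95 and 11.93 in treated animals. Here too the groups were apart, although the treated animal at 10.75 came close to the controls, and the difference was 1.41 (SE 0.227, adjusted p = 1e-06). Lss, the cyclase, was higher by 0.95 (SE 0.226), with controls at 7.72, 8.22, 7.70, 7.96 and 8.11 and treated animals at 8.58, 9.09, 8.75, 9.28 and 8.79.

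Ebp was not called on day 1 in wild type: its controls were at 11.68, 11.82, 11.64, 11.65 and 11.75 and its treated animals at 11.67, 11.81, 11.68, 11.86 and 11.69. The groups covered nearly the same range and the difference was 0.03 (limma adjusted p = 0.834).

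Of the control genes 0 of 4 were called on day 1 in wild type (2 higher at an unadjusted p below 0.05 in limma). Insig1 came nearest, with controls at 11.21, 11.48, 11.46, 11.13 and 11.78 and treated animals at 12.01, 12.05, 12.03, 12.09 and 11.21, a difference of 0.47 (limma adjusted p = 0.0522). In Insig1 a single treated animal, at 11.21, lay among the controls. Stard4 was called at 0.42, with controls from 9.19 to 9.66 and treated animals from 9.69 to 10.00.

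The exporter pair Abcg5 and Abcg8 fell on the same day, when 6.97% of all genes were called lower. Abcg5 was at 9.91, 9.96, 10.17, 10.03 and 9.83 in controls and 8.93, 8.59, 9.39, 8.52 and 9.31 in treated animals. All treated animals lay below all controls, by -1.03 on average (SE 0.179, limma adjusted p = 5.79e-06), a 0.489-fold level. Abcg8 was at 8.84, 8.77, 8.95, 8.92 and 8.75 in controls and 7.89, 7.68, 8.22, 7.72 and 8.35 in treated animals. It was likewise separated, by -0.87 (SE 0.15, adjusted p = 4.82e-06). Abca1 differed by -0.04 on day 1 and was not called. On days 7, 14, 28 and 91 no exporter was called in wild type (0.61%, 5.68%, 1.93% and 0.681% of all genes were called lower). In that order Abcg5 differed by 0.05, -0.22, -0.09 and -0.12 and Abcg8 by -0.003, -0.28, -0.25 and -0.12. Abca1 differed by -0.17, -0.05, -0.18 and -0.14, with an unadjusted p below 0.05 in limma on days 7, 28 and 91.

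The acinar markers were uneven between the wild-type groups of day 1: their mean ranged from 5.82 to 10.37 in controls and 5.52 to 9.35 in treated animals. Of these markers 0 of 7 were called between the groups (12% of all genes were, either way). Leaving out the animals over 7 left 1 control, and then 0 synthesis enzymes were called on day 1, with a median difference of 0.74 against 0.95 with all animals. The calls of Abcg5 (-0.82, adjusted p = 0.44), Abcg8 (-0.77, adjusted p = 0.293) and Stard4 (0.30, adjusted p = 0.688) were lost too. With the acinar mean as a covariate, 16 enzymes were called. The part of acinar RNA in the day 1 result was not tested.

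The calls of days 14 and 28 in wild type depended on single animals. On day 14 the 6 enzymes called were Sqle (1.43), Mvd (1.10), Msmo1 (1.02), Hmgcs1 (0.72), Lss (0.70) and Sc5d (0.37), and Insig1 was called too (0.69). Sqle was at 8.91, 7.91, 7.60 and 7.37 in controls and 9.10, 8.66, 9.99, 9.58 and 9.54 in treated animals. The control at 8.91 lay among the treated animals, so the groups overlapped. The day 14 count rose to 13 without animal 1011 or animal 2012 and fell to 2 without 1014 or 2013 and to 3 without 1012, 1013, 2014 or 2015. It was 2 when only the arrays of both groups were fitted and 15, with a median of 1.09, without the animals with high acinar markers. That last fit left out 2 of the 4 controls and 2 of the 5 treated animals, 1011 and 2012 among them.

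On day 28 the calls were Sqle (1.09) and Msmo1 (0.82). Sqle was at 8.28, 7.18, 8.27, 8.09 and 9.57 in controls and 9.53, 9.43, 9.45, 9.24 and 9.22 in treated animals. The treated animals were tightly grouped, and the control at 9.57 stood above them all. The count was 0 without animal 1017, 1 without 1019 and 0 in a fit of only these arrays.

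**Figure D2:**
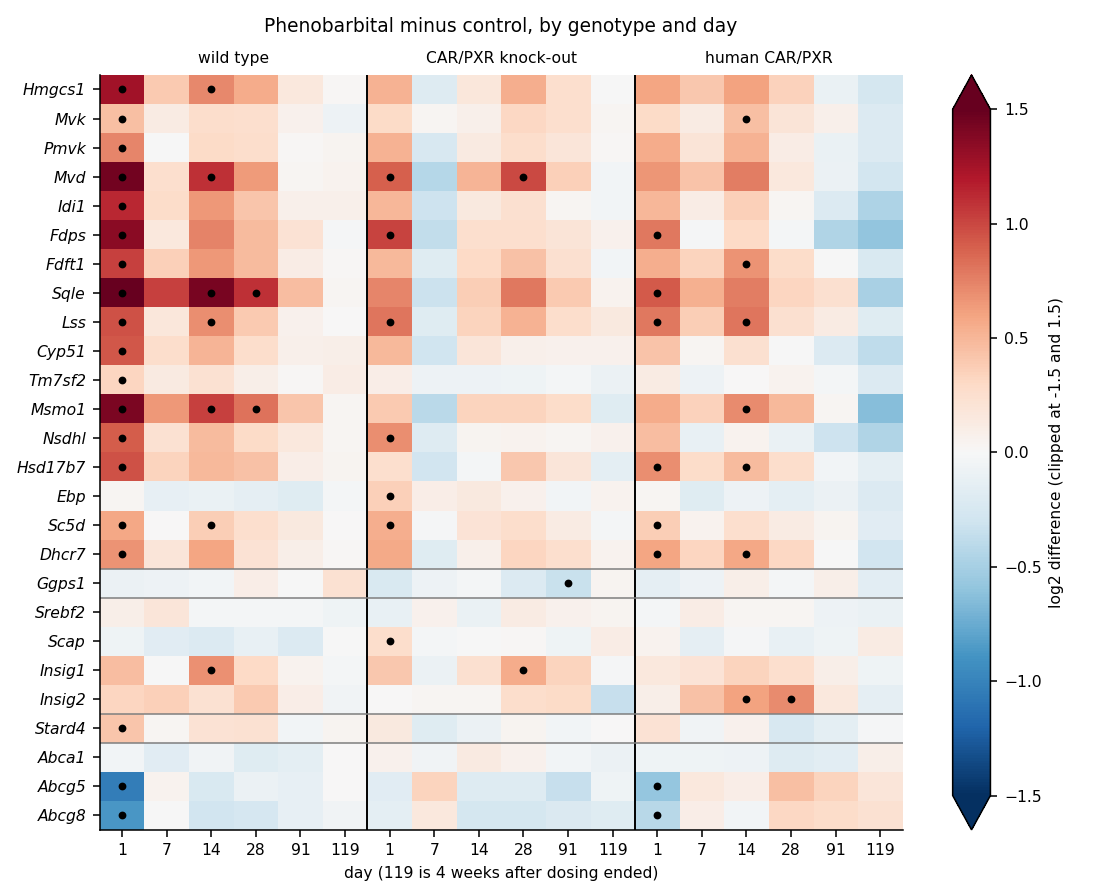
Log2 difference, phenobarbital minus control, for each of the 26 members (rows) on each day (columns) in the 3 genotypes; colour gives the difference and a dot marks limma adjusted p below 0.05. The day 1 column of wild type holds 16 dotted synthesis enzymes, days 7, 91 and 119 hold none, and Abcg5 and Abcg8 are dotted and negative on day 1 in wild type and humanized livers.

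After 4 weeks without phenobarbital no wild-type difference among the synthesis enzymes was called. On day 119, 0 of 17 synthesis enzymes were called in either direction (0.0238% of all genes were; 0 at an unadjusted p below 0.05), and the median difference was 0.02. Sqle was at 8.80, 8.60, 8.57, 8.76 and 9.30 in controls and 9.24, 8.88, 8.91, 7.83 and 9.33 in animals that had been treated, and the ranges overlapped. Set against the mean of the dosing days, the day 119 effect was called lower for 2 enzymes, Sqle (-1.19, limma adjusted p = 0.0354) and Msmo1 (-0.83, adjusted p = 0.0369), where 1.85% of all genes were. The Msmo1 difference was -0.45 with its probe sets averaged (adjusted p = 0.234). Those calls were lost without the animals with high acinar markers (adjusted p = 0.135 and 0.205), when single animals were left out, in 5 of 56 cases for Sqle and 6 of 56 for Msmo1, and for both in a fit of only the arrays compared (adjusted p = 0.0573 and 0.0562).

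In knock-out liver the same enzymes mostly lay above 0 but fewer were called. Averaged over the dosing days, 5 of 17 synthesis enzymes were called higher (8.64% of all genes were) and 0 lower (11.0% of all genes; 0 at an unadjusted p below 0.05), with a median of 0.19. They were Mvd (0.47), Lss (0.35), Sc5d (0.23), Mvk (0.19) and Ebp (0.13). Sqle, at 0.39 (SE 0.152, limma adjusted p = 0.0546), fell just short, and 10 enzymes were higher at an unadjusted p below 0.05. The count rose to 9 without animal 4013 and to 8 without 3013, 3019, 4004, 4009 or 4021. Insig1 was higher by 0.29, and Ggps1 was lower, at -0.17. Of the exporters 0 of 3 were called (1 lower at an unadjusted p below 0.05 in limma).

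Day 1 in knock-out gave 6 calls among the synthesis enzymes (3.47% of all genes were called higher): Fdps (1.02), Mvd (0.90), Lss (0.80), Nsdhl (0.70), Sc5d (0.55) and Ebp (0.36). The treated animals lay above all controls for 4 of the 17, against 2.44% of all genes, namely Mvk, Fdps, Ebp and Sc5d. Sqle was at 8.09, 9.49, 9.80, 9.62 and 9.95 in controls and 10.44, 10.31, 10.16, 9.61 and 10.07 in treated animals. A single control, animal 3001 at 8.09, was far below the rest, and the difference of 0.73 was not called (limma adjusted p = 0.151). Without animal 3001 the day 1 count fell from 6 to 2, and it was 9 without 4004. It was also 2 in a fit of only these arrays and 5 without the animals with high acinar markers. Mvd lost its day 1 call without any of 7 of the 10 animals and, among the settings, in all but quantile normalization and averaged probe sets.

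Ebp was called higher in knock-out. Its knock-out controls were at 11.46, 11.64, 11.70, 11.68 and 11.72 on day 1 and treated animals at 12.14, 12.03, 12.00, 11.82 and 11.98. All treated animals were above all controls, and the difference was 0.36 (SE 0.0713, limma adjusted p = 0.000389). On day 1 in knock-out 0 of 3 exporters were called (4.61% of all genes were called lower; 0 at an unadjusted p below 0.05): Abcg5 differed by -0.17 and Abcg8 by -0.14.

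Later days gave few calls in knock-out. The count was 0 on day 7 (0.0158% of all genes were called higher; 0 at an unadjusted p below 0.05), when 2 of 17 enzymes were above 0. It was 0 on day 14 (0.238%, 1 at an unadjusted p below 0.05). On day 28 it was 1 (2.51%, 8 at an unadjusted p below 0.05 in limma, as in wild type). The median difference of day 28 was 0.31, against 0.39 in wild type. The count was 0 on day 91 (0.879%, 1 at an unadjusted p below 0.05). On day 119 it was 0 either way (0.111%, 0 at an unadjusted p below 0.05). The gene of day 28 was Mvd (1.00), at 7.19, 7.83, 7.35, 7.42 and 7.10 in controls and 8.27, 8.21, 8.66, 8.39 and 8.35 in treated animals. The Mvd groups of day 28 were fully separated, yet leaving out 3016, 3018, 3019, 3020, 4018, 4019 or 4020 brought the count to 0, and leaving out 4017 to 2. The Mvd call was also lost without the animals with high acinar markers (adjusted p = 0.0513) and without arrays 4019 and 4024 (adjusted p = 0.0572), and the count was 3 with probe sets averaged. Of the other members in knock-out, Scap was called higher on day 1 (0.27), Insig1 higher on day 28 (0.56) and Ggps1 lower on day 91 (-0.33); each of these calls was lost in a fit of only the arrays compared.

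In humanized liver the number of calls over the dosing days lay between the others, although not on every single day. Averaged over the dosing days, 11 of 17 synthesis enzymes were called higher (14.9% of all genes were) and Ebp was called lower at -0.09 (17.5% of all genes were), with a median of 0.26. Sqle led with 0.56 (SE 0.149, limma adjusted p = 0.00171), followed by Lss (0.46), Msmo1 (0.42), Mvd (0.39), Hmgcs1 (0.37), Fdft1 (0.36), Dhcr7 (0.36), Hsd17b7 (0.34), Pmvk (0.26), Mvk (0.22) and Sc5d (0.17). Of these, Pmvk lost its call without any of 20 of the 47 animals, Mvd without any of 5, and Msmo1 was at 0.17 with its probe sets averaged (adjusted p = 0.144). Idi1, Fdps, Cyp51, Tm7sf2 and Nsdhl were not called.

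Insig2 was the most changed control gene in humanized liver. Over the dosing days it was higher by 0.40 (SE 0.0701, limma adjusted p = 1.29e-06), against 0.28 in wild type and 0.12, not called, in knock-out. On day 28 it was at 11.98, 11.54, 12.06 and 11.77 in humanized controls and 12.53, 12.68, 12.49, 12.72 and 12.32 in treated animals. Those groups were apart, by 0.71 (adjusted p = 0.00102), and on day 14 the difference was 0.60 (adjusted p = 0.00298). The differences in the Insig2 effect between genotypes were not called in limma. Humanized minus wild type was 0.12 (adjusted p = 0.662), knock-out minus wild type -0.16 (adjusted p = 0.349), and humanized minus knock-out 0.28 (95% interval 0.08 to 0.48), just short of the threshold at an adjusted p of 0.0572. Insig1 was higher by 0.21, a call that was lost without any of 7 animals and without the animals with high acinar markers (0.17, adjusted p = 0.0745).

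Day 1 in humanized liver gave 6 calls (3.95% of all genes were called higher): Sqle (0.92), Fdps (0.79), Lss (0.79), Hsd17b7 (0.70), Dhcr7 (0.59) and Sc5d (0.36). Treated animals lay above all controls for 2 of the 17, Fdps and Sc5d, against 2.39% of all genes. Sqle was at 9.76, 10.02, 9.78, 8.84 and 9.06 in controls and 10.53, 10.42, 10.66, 9.82 and 10.66 in treated animals. A single treated animal, at 9.82, was within the range of the controls. The count of 6 fell to 2 without 6001, 6003, 6005 or 5005 and to 3 without 5004. It was also 2 in a fit of only these arrays and 2 without the animals with high acinar markers, of which there was 1 in these groups, treated animal 6003 with a mean of 12.38.

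Abcg5 fell on day 1 in humanized liver as well, when 7.78% of all genes were called lower. Its controls were at 9.80, 9.55, 9.62, 10.56 and 9.55 and its treated animals at 9.21, 8.74, 9.18, 9.51 and 9.50. The Abcg5 groups did not overlap, and the difference was -0.58 (SE 0.179, limma adjusted p = 0.0188). The call was lost without either of 2 animals and in a fit of only these arrays (adjusted p = 0.131). Abcg8, at -0.42 (adjusted p = 0.0494), overlapped and lost its call under quantile normalization (adjusted p = 0.086) and without any of 6 animals. The count of exporters called lower was also 1 without the dim filter, without arrays 4019 and 4024 and with another variance prior. It was 1 without the animals with high acinar markers and with the acinar covariate, and 0 in a fit of only these arrays. Over the dosing days neither was called in humanized liver (Abcg5 0.09, Abcg8 0.05), and Abca1 was at -0.11 (adjusted p = 0.00257). Those 2 means join a fall on day 1 with mostly positive differences later. On days 7, 14, 28 and 91 Abcg5 differed by 0.16, 0.10, 0.45 and 0.34, and Abcg8 by 0.10, -0.05, 0.31 and 0.28. None of these was called. Abcg5 on day 28 had an unadjusted p of 0.0188 in limma (adjusted p = 0.136).

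Later in humanized liver the count was 0 on day 7 (2.82% of all genes were called higher; 0 higher and 1 lower at an unadjusted p below 0.05) and 6 on day 14 (7.34%). On day 28 it was 0 (4.18%; 1 at an unadjusted p below 0.05) and on day 91 0 (1.48%; 0 at an unadjusted p below 0.05). The 6 of day 14 were Lss (0.80), Msmo1 (0.70), Fdft1 (0.68), Dhcr7 (0.58), Hsd17b7 (0.47) and Mvk (0.45). That count fell to 2 without 6014 or 5015 and to 3 without 6013 or 5012, and a fit of only these arrays gave 10. Hsd17b7 and Dhcr7 each lost their call without any of 8 of the 10 animals, and with probe sets averaged Msmo1 was at 0.28 (adjusted p = 0.394) and Hsd17b7 at 0.22 (adjusted p = 0.257). On day 119, 0 were called either way (0.214% of all genes were; 0 higher and 2 lower at an unadjusted p below 0.05), although all 17 lay below 0, with a median of -0.27 and 3 treated samples. Set against the dosing days, the day 119 effect was called lower for Msmo1 (-1.06, limma adjusted p = 0.00677) and Mvk (-0.43, adjusted p = 0.042), where 3.87% of all genes were. The Msmo1 difference was -0.52 with its probe sets averaged and was not called (adjusted p = 0.163), nor was it without animal 6027 (adjusted p = 0.161). The Mvk call was lost with arrays 6026 and 6030 kept as separate samples (-0.36, adjusted p = 0.0589), in a fit of only the arrays compared (adjusted p = 0.0951), without the filter on dim genes (adjusted p = 0.0578) and without any of 11 of the 55 animals.

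Whether phenobarbital acted differently by genotype was tested on the differences themselves. The dosing-day effect was smaller in knock-out than in wild type for 4 synthesis enzymes: Sqle by -0.83 (95% interval -1.26 to -0.41, limma adjusted p = 0.00301), Msmo1 by -0.68 (adjusted p = 0.000484), Hsd17b7 by -0.36 (adjusted p = 0.0166) and Tm7sf2 by -0.19 (adjusted p = 0.0447). Of all genes, 5.77% were called lower and 7.67% higher in this comparison. Ebp went the other way, higher by 0.23 in knock-out (adjusted p = 0.000192). Among the other members the effect on Scap was higher by 0.19, that on Abca1 higher by 0.15 and that on Stard4 lower, at -0.20. The Tm7sf2 call was lost without any of 37 of the 92 animals, and that of Abca1 when its probe sets were averaged (0.00, adjusted p = 0.99). Without the animals with high acinar markers the calls of Ebp (0.16, adjusted p = 0.072), Scap (0.20, adjusted p = 0.0788) and Stard4 (-0.22, adjusted p = 0.0635) were lost. The Stard4 call was also lost without animal 1008 or 1014, and the Scap difference was 0.30 with its probe sets averaged.

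For humanized against wild type, 0 synthesis enzymes were called (1.88% of all genes were, in either direction; 7 were lower at an unadjusted p below 0.05 in limma). The largest such difference was Sqle at -0.67, with an interval of -1.09 to -0.25 and an adjusted p of 0.0768. The unadjusted 95% intervals held 0 for 10 of the 17 enzymes. The count was 2 without animal 1020, 1 without 1011, 2003, 2012 or 2021, and 1 with probe sets averaged. Abcg8 was called, with an effect higher by 0.35 in humanized liver (interval 0.16 to 0.55, adjusted p = 0.031), a call lost without any of 3 animals.

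Between humanized and knock-out effects, where 10.1% of all genes were called either way, Ebp (-0.22, limma adjusted p = 0.000344) was the synthesis enzyme called, and Abca1 (-0.15, adjusted p = 0.0167) was the exporter, a call lost with probe sets averaged (adjusted p = 0.163). On day 1 alone, 0 synthesis enzymes were called between the effects of knock-out and wild type (1.26% of all genes were, 1 enzyme higher and 4 lower at an unadjusted p below 0.05). Between humanized and wild type 0 were called (0.111%, 3 lower at an unadjusted p below 0.05). Knock-out minus wild-type effects also gave 0 calls on day 7 (0.666% of all genes, 3 enzymes lower at an unadjusted p below 0.05 in limma). On day 14 the count was 0 as well (1.28%, 1 higher and 4 lower at an unadjusted p below 0.05). There were 0 calls on day 28 (3.75%) and day 91 (0.729%), and on both days 0 enzymes were at an unadjusted p below 0.05 in limma.

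The untreated livers of the 3 genotypes were not alike. In knock-out controls 16 of 17 synthesis enzymes were higher than in wild-type controls (11.5% of all genes were), with a median difference of 0.66, and in humanized controls 13 of 17 were (11.6% of all genes), with a median of 0.51. Ebp was called in neither. These genotype differences and the wild-type drug effect share the wild-type controls, so the values are set side by side and not related to each other. Sqle again led: it was higher by 1.41 in knock-out controls (SE 0.14, limma adjusted p = 1.09e-15), or 2.66-fold, and by 1.16 in humanized controls (adjusted p = 6.47e-12), or 2.23-fold.

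Across all control animals Sqle ran from a lowest 6.99 through a median 8.28 to a highest 9.57 in wild type (n = 27), from 8.09 through 9.64 to 10.42 in knock-out (n = 27) and from 8.46 through 9.31 to 10.03 in humanized livers (n = 29). The wild-type animals were the lower group, and the ranges overlapped. Next in knock-out came Idi1 (0.89), Cyp51 (0.76), Hmgcs1 (0.74), Mvd (0.74), Fdft1 (0.72) and Msmo1 (0.70), and the smallest call was Mvk (0.14), which was lost without the animals with high acinar markers (adjusted p = 0.137), with the acinar covariate (adjusted p = 0.0503) and without any of 3 animals. Sc5d, at 0.22, was at 0.10 with probe sets averaged (adjusted p = 0.267). In humanized controls Mvk, Pmvk, Ebp and Dhcr7 were not called. Sc5d, at 0.15 in humanized controls, turned to -0.03 when its probe sets were averaged (adjusted p = 0.744).

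Of the other members, Stard4 was higher in both, by 0.36 in knock-out and 0.25 in humanized controls, and Srebf2 was called higher in knock-out controls (0.10) and not in humanized (0.02, adjusted p = 0.694); the Srebf2 call was lost without the animals with high acinar markers (adjusted p = 0.0708). In limma 0 of 3 exporters were called in either comparison (1 and 0 lower at an unadjusted p below 0.05): Abcg5 differed by 0.12 and 0.05, and Abcg8 by -0.03 and -0.07. Humanized against knock-out controls gave 2 synthesis enzymes lower (9.82% of all genes were), Pmvk (-0.31) and Hsd17b7 (-0.21), with Ggps1 (-0.14) and Srebf2 (-0.08). Under quantile normalization Hsd17b7 (adjusted p = 0.0551) and Srebf2 (-0.05, adjusted p = 0.284) were not called. Srebf2 also lost its call with probe sets averaged (adjusted p = 0.078) and without any of 19 of the 56 animals, Hsd17b7 without animal 3007 or 5028, and Ggps1 was at -0.08 with probe sets averaged.

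All 7 acinar markers tested were called lower in humanized than in wild-type controls (16.5% of all genes were). In knock-out 1 of 7 was, near the 10.9% of all genes called lower there. Without the animals with high acinar markers, 15 synthesis enzymes were called in knock-out and 14 in humanized controls, so the counts changed by 1. With the acinar mean as a covariate they were 15 and 13.

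**Figure D3:**
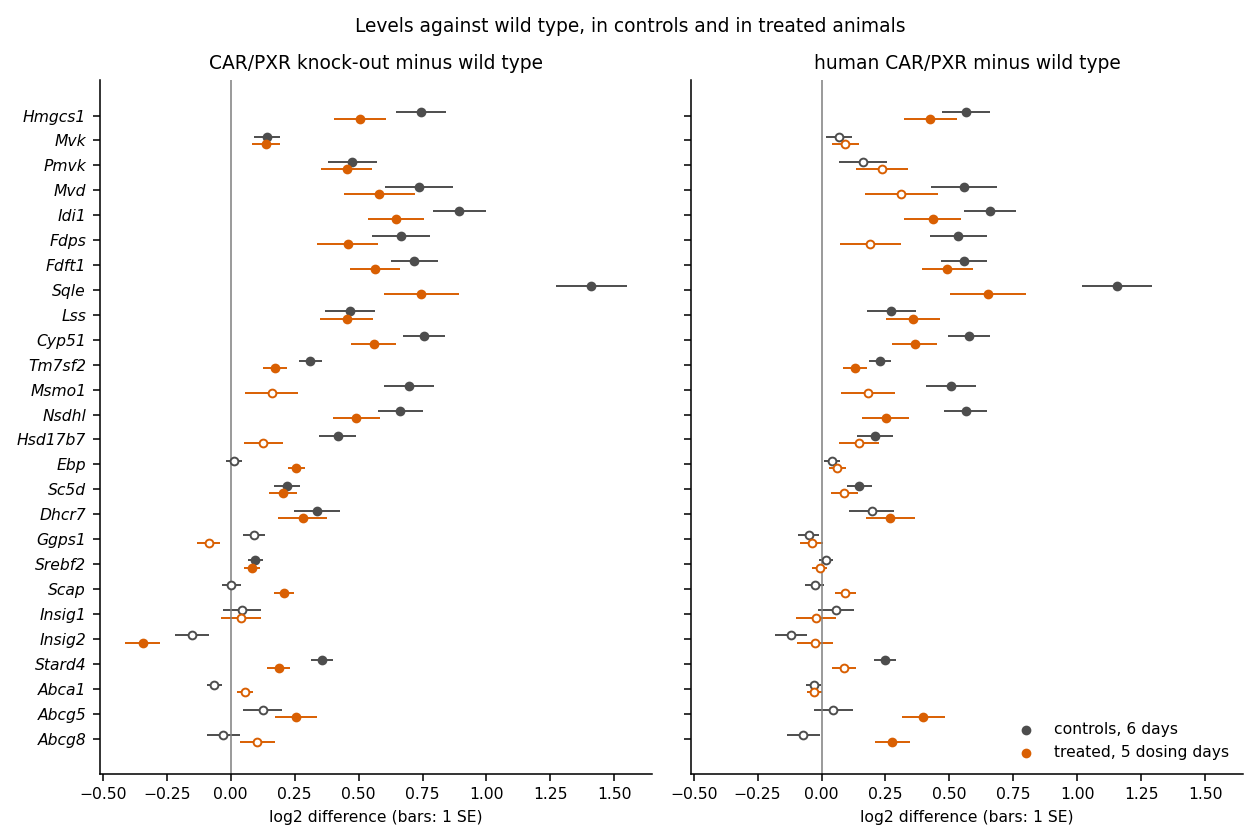
Log2 difference between untreated genotypes and between treated genotypes for the 26 members, controls over all 6 days and treated animals over the 5 dosing days, with bars of 1 SE of the limma fit; filled points passed adjusted p below 0.05. Untreated knock-out and humanized livers lie to the right of wild type for the synthesis enzymes, by a median of 0.66 and 0.51, and by 0.45 and 0.25 among treated livers of the dosing days.

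By day, calls between untreated genotypes fell on days 1 to 28; whether the gap differed between days was not tested. Knock-out minus wild-type controls gave 9 synthesis enzymes called higher on day 1 (1.35% of all genes), 8 on day 7 (0.697%), 9 on day 14 (0.745%) and 8 on day 28 (3.68%). On day 91 the count was 0 (1.31%; 3 at an unadjusted p below 0.05) and on day 119 0 (0.887%; 0 at an unadjusted p below 0.05). Humanized minus wild-type controls gave 11 on day 1 (1.42%), 1 on day 7 (1.11%), 6 on day 14 (1.85%) and 1 on day 28 (0.745%). There were 0 on day 91 (0.784%; 0 higher and 1 lower at an unadjusted p below 0.05) and 0 on day 119 (0.333%; 0 at an unadjusted p below 0.05). For Sqle the knock-out difference was 1.95 on day 1, 2.0 on day 7, 1.78 on day 14, 1.21 on day 28, 0.95 on day 91 and 0.57 on day 119. Without the animals with high acinar markers, which left 1 wild-type control on day 1, the day 1 counts were 0 and 0, with medians of 0.69 and 0.87; with the acinar mean as a covariate they were 9 and 10.

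The wild-type controls themselves changed with time. Between day 1 and day 119, 11 of 17 synthesis enzymes rose in untreated wild-type livers (5.18% of all genes did), with a median of 0.73. The largest were Sqle (1.37, limma adjusted p = 0.00142), Msmo1 (1.27), Mvd (1.19), Hmgcs1 (1.15) and Fdps (1.12). Hmgcs1 was at 12.72, 12.43, 12.43, 12.61 and 12.84 on day 119, above all 5 control values of day 1, which reached 11.73. Abcg5 fell by 0.79 and Abcg8 by 0.48 on the log2 scale in the same livers (7.26% of all genes were called lower), and Stard4 rose by 0.36. High acinar markers were present in 4 of 5 of these controls on day 1 and 2 of 5 on day 119. Leaving those animals out left 1 control on day 1, so that fit cannot decide on the exporters. The part of acinar RNA in the exporter change was not tested.

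In knock-out controls the count over the same span was 0 (7.99% of all genes were called either way; 3 higher at an unadjusted p below 0.05), and in humanized controls it was 0 (6.88%; 1 lower at an unadjusted p below 0.05). Without the animals with high acinar markers the wild-type count was 0, with a median of 0.68 and 1 control left on day 1, and with the acinar mean as a covariate it was 11. The day of the study and the age of the animals cannot be told apart in this design.

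Averaging the 17 synthesis enzymes in each animal shows these movements together. The mean of wild-type controls was 9.39 ± 0.26 (SD, n = 5) on day 1, 9.88 ± 0.36 (n = 4) on day 7, 9.66 ± 0.41 (n = 4) on day 14, 9.84 ± 0.37 (n = 5) on day 28, 10.06 ± 0.05 (n = 4) on day 91 and 10.14 ± 0.14 (n = 5) on day 119. The means of treated wild-type animals lay between 10.14 on day 7 and 10.35 on day 1. The day 1 controls, between 9.11 and 9.66, were thus the lowest group of the 36, and the treated animals of day 1 lay between 9.94 and 10.61.

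**Figure D4:**
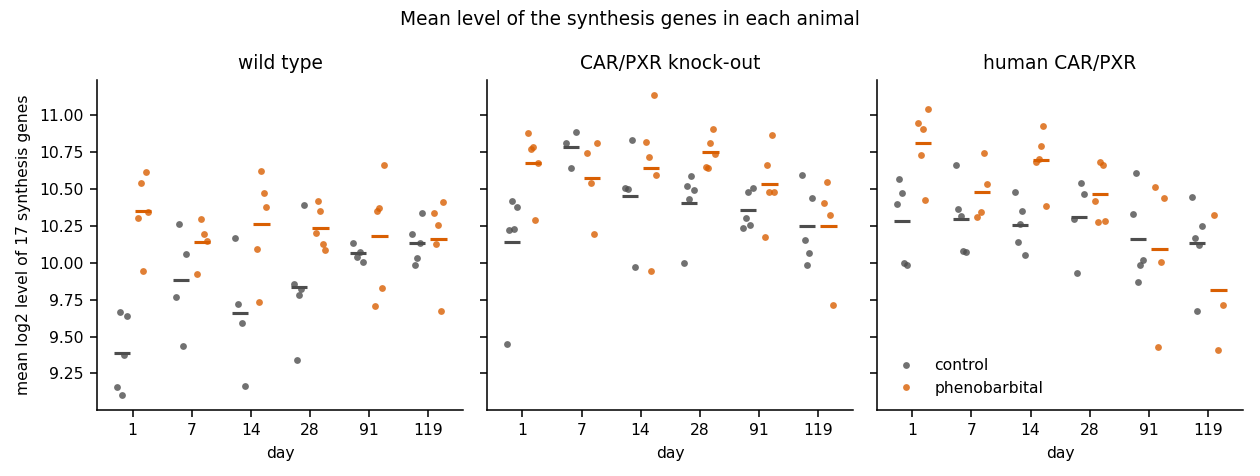
Mean log2 level of the 17 synthesis enzymes in each animal, by day, for the 3 genotypes; points are animals of the control and phenobarbital arms and short horizontal bars are group means. Wild-type controls climb from a mean of 9.39 on day 1 to 10.14 on day 119 while the means of treated wild-type animals stay between 10.14 and 10.35.

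Treated livers were also compared with each other, without using any control. In treated wild type 0 synthesis enzymes were called between day 91 and day 1 (12.8% of all genes were called either way; 0 at an unadjusted p below 0.05), and in treated knock-out 0 (4.08%; 1 lower at an unadjusted p below 0.05). In treated humanized livers 13 of 17 were lower on day 91 than on day 1 (2.76% of all genes were), with a median of -0.72, led by Fdps (-1.18) and Idi1 (-1.09), while Abcg5 (0.64) and Abcg8 (0.47) were higher. Sqle was at 10.09, 8.22, 8.99 and 10.09 on day 91 and between 9.82 and 10.66 on day 1. The animals of day 91 fell into a high and a low pair, and the count was 3 without 6022, 6 without 6023, 7 without 6005, 8 without 6001, 3 in a fit of only these arrays and 9 without the animals with high acinar markers. The change of the humanized effect on Abcg5 between those days was 0.92 (limma adjusted p = 0.0396), which lost its call without any of 9 of the 19 animals and in a fit of only these arrays (adjusted p = 0.172). That call was also lost under quantile normalization, without the dim filter, without the animals with high acinar markers and with the acinar covariate.

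With the dosing days averaged, treated knock-out livers were above treated wild-type livers in 15 of 17 synthesis enzymes (16.5% of all genes were higher), with a median of 0.45. The exceptions were Msmo1 (0.16) and Hsd17b7 (0.13). Treated humanized livers were above in 9 of 17 (13.7%), with a median of 0.25. Sqle averaged 9.33 ± 0.53 (SD, n = 24) in treated wild type, 10.08 ± 0.38 (n = 24) in knock-out and 10.00 ± 0.56 (n = 23) in humanized livers. Treated wild-type Sqle thus remained below the untreated knock-out mean of 9.63 ± 0.52 (n = 22) and the untreated humanized mean of 9.41 ± 0.43 (n = 24), differences smaller than 1 SD that were not tested.

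Export and control genes differed between treated genotypes too. Abcg5 was higher in treated knock-out (0.26, limma adjusted p = 0.0106) and treated humanized livers (0.40, adjusted p = 6.15e-05) than in treated wild type, and Abcg8 in humanized livers (0.28, adjusted p = 0.001). Insig2 was lower in treated knock-out than in treated wild type, at -0.34 (adjusted p = 2.69e-05), where 13% of all genes were called lower, but not in humanized (-0.03). Scap (0.21), Stard4 (0.19) and Srebf2 (0.08) were higher in treated knock-out livers. Single-gene calls between treated genotypes were not followed through the alternative settings.

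**Figure D5:**
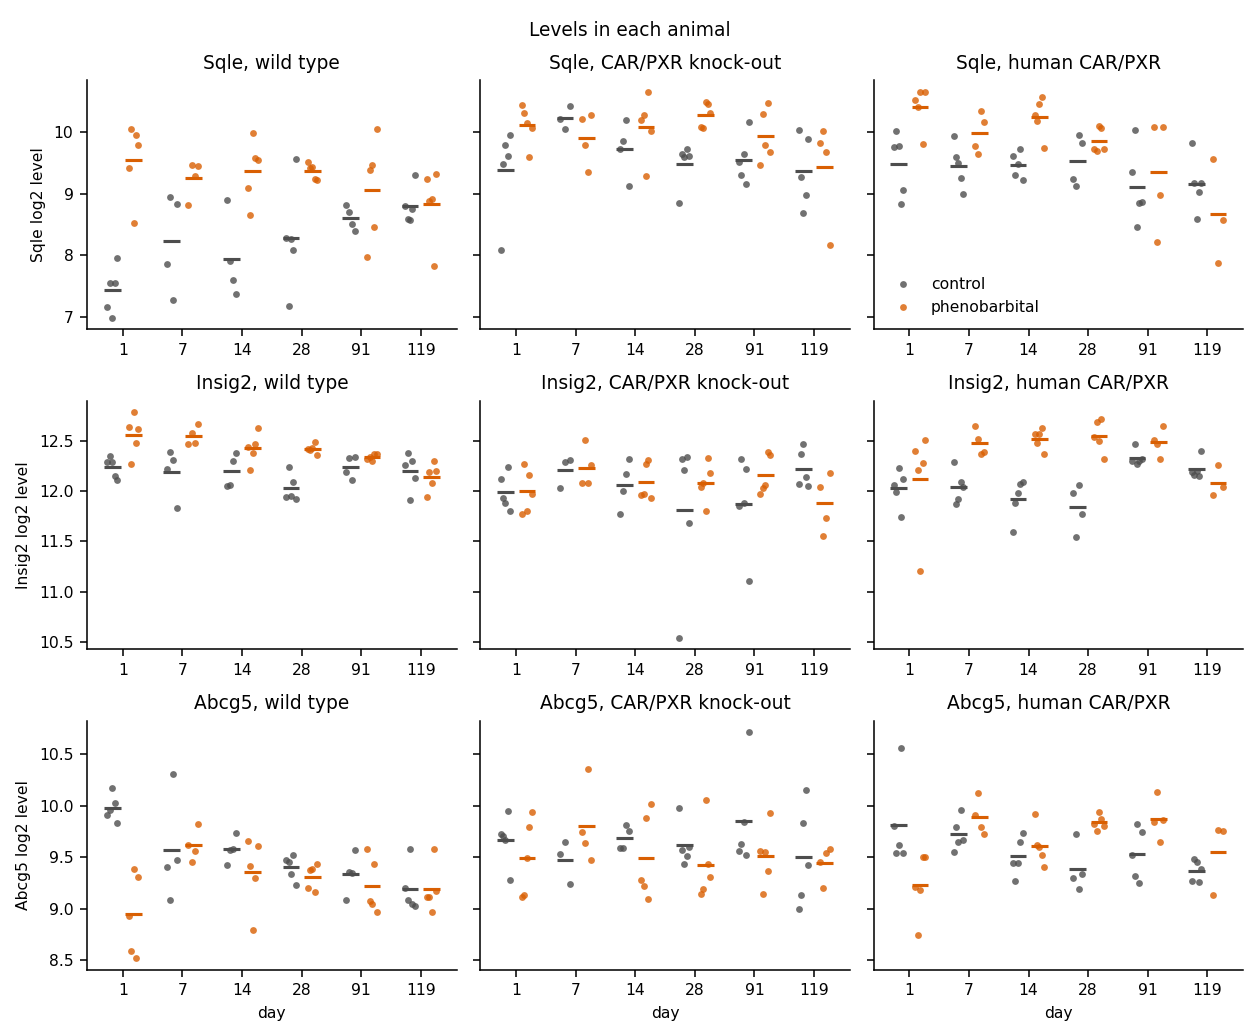
Log2 level of Sqle, Insig2 and Abcg5 in each animal by day, for control and phenobarbital arms in the 3 genotypes; points are animals and short horizontal bars are group means. On day 1 in wild type all treated animals are above all controls for Sqle (lowest 8.52, highest control 7.97) and below all controls for Abcg5 (highest 9.39, lowest control 9.83).

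The members also varied to very different degrees between animals treated alike. The within-group SD was 0.516 for Sqle, larger than in 98.9% of the genes tested, and 0.491 for Mvd (98.7%), against a median of 0.131 over all genes. Ebp (0.113, larger than in 30.1%), Srebf2 (0.105, 22.9%) and Abca1 (0.105, 23.4%) were among the steadier members. Other probe sets of a gene did not always give like values. For the wild-type dosing-day effect those of Hmgcs1 ranged from 0.57 to 0.73 and those of Insig2 from 0.25 to 0.33. The sets of Cyp51 gave 0.41 (the one used, level 9.97), 0.65 (level 9.10) and 0.32 (level 6.60) in wild type, and 0.10, 0.39 and 0.19 in humanized liver. Those of Sc5d gave 0.27 (the one used, level 12.85), 0.37 (level 9.82) and 0.04 (level 6.51) in wild type. Dim second probe sets of Fdps (level 2.56) and Fdft1 (5.39 and 5.28) gave -0.04, -0.01 and 0.07, and for Msmo1 the second set, at 5.38, gave 0.35 in wild type and -0.09 in humanized liver.

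Genes that surround the pathway were taken as whole lists, whose counts stand beside 11.8% of all genes called higher and 19.7% lower in this comparison; with 3 to 7 genes tested in each, no count is read as particular to its list. Of the other synthesis genes, 3 of 6 were tested: over the dosing days in wild type Lbr, a second C14 reductase, was higher (0.19) and Acat1, a mitochondrial thiolase, lower (-0.25). For uptake and lysosomal release 6 of 10 were tested and 3 were called lower, Scarb1, the HDL receptor (-0.42), Lrp1, a remnant receptor (-0.20), and Mylip, which marks lipoprotein receptors for degradation (-0.17). Npc1, Npc2 and Lipa were not called. Scarb1 was at 0.50-fold on day 1 in wild type (-1.0, limma adjusted p = 4.68e-09), -0.90 on day 1 in humanized liver, -0.42 and -0.28 over the dosing days in wild type and humanized, and -0.02, not called, in knock-out. The difference of the Scarb1 effect between knock-out and wild type was 0.40 (adjusted p = 0.000496). Scarb1 and the other genes of these lists were not followed through the alternative settings. In the wild-type day 1 comparison 4 of 5 controls had high acinar markers.

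Among esterification genes 3 of 5 were tested and 2 were higher in wild type, Ces1d, a carboxylesterase (0.46), and Nceh1, a cholesteryl ester hydrolase (0.28). In knock-out Nceh1 was lower (-0.28). Of the LXR and lipoprotein genes 6 of 8 were tested, with Mttp, which loads lipid onto apolipoprotein B, higher (0.18) and 3 lower, among them Apoe (-0.13) and Nr1h3, which encodes LXR alpha (-0.11). Of the SREBP machinery 7 of 8 were tested, with 1 higher, Rnf139 (0.11), and 1 lower, Rnf145 (-0.19), both ubiquitin ligases. The median difference in wild type was -0.12 for uptake, 0.28 for esterification, -0.06 for LXR and lipoprotein genes and -0.04 for the SREBP machinery, beside 0.45 for the synthesis members and -0.01 for all genes.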

How the data were processed

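The deposited values are log2 intensities of 45101 probe sets on 167 arrays, made by the authors with RMA, which corrects background, quantile-normalizes and summarises probes, per the submitters' processing notes; the RMA version is not given in the sources used here. Arrays were taken as separate animals as labelled, so p-values measure the spread between animals. No sample column was left unused (0). Of the probe sets, 34958 carry a single gene symbol, 932 several and 9211 none in the platform annotation; several-symbol sets were not named. Each gene took its single-symbol probe set with the highest mean, and 12622 genes with that set above the array's own median on at least 3 arrays were tested.

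limma 3.58.1 (R 4.3.3) was fitted to 36 group means (genotype, treatment and day) over 166 samples, with eBayes moderation, two-sided tests and Benjamini-Hochberg adjustment over all genes tested; a call is an adjusted p below 0.05. The dosing-day mean weights the 5 days equally, and the scripts were tested on simulated data. The members and lists were chosen with earlier results of these data known. All 27 members could be named, and of each related list at most 3 genes with the largest called wild-type change. Alternatives were quantile normalization, no dim filter, averaged probe sets, only the compared arrays, other treatment of the near-identical arrays, another variance prior and leaving out each animal. Comparisons of treated groups, of control groups over time, and leaving out animals with an acinar marker mean over 7 or fitting that mean as a covariate, were chosen after seeing the data. Near-identical pairs had an SD of the log2 difference of 0.056 and 0.0613, against at least 0.122 for other pairs. Promoter windows came from RefSeq (GRCm38.p6). Array numbers are the labels' own; the number of arrays limits the precision.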

Additional observations from a re-analysis of the deposited data

Results flagged for a closer look

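The synthesis mean in each group of 4 or 5 animals, and Sqle, Abcg5, Insig2 and Hmgcs1 in the groups of day 1, made 58 sets of values. Of these, 6 held a highest or lowest value far from the rest, where chance gives about 1 in 20, and other sets were not tested. The mean of the synthesis enzymes was 9.45 in a knock-out control of day 1 (animal 3001; rest 10.22 to 10.42) and 10.00 in a knock-out control of day 28 (rest 10.43 to 10.59). Sqle was at 8.09 in animal 3001 (rest 9.49 to 9.95), whose acinar marker mean was 5.37, and at 9.82 in a treated humanized animal of day 1 (rest 10.42 to 10.66). Abcg5 was at 10.56 in humanized control 5004 of day 1 (rest 9.55 to 9.80). Insig2 was at 11.21 in treated humanized animal 6003 of day 1 (rest 12.21 to 12.51), which had an acinar marker mean of 12.38; the part of that RNA in the Insig2 value was not tested.

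Other results stand out because a drug effect differed between genotypes or days by limma's test of the difference. The knock-out minus wild-type effect over the dosing days was -0.83 for Sqle, -0.68 for Msmo1, -0.36 for Hsd17b7, -0.19 for Tm7sf2, -0.20 for Stard4, 0.23 for Ebp, 0.19 for Scap and 0.15 for Abca1. Humanized minus wild type was 0.35 for Abcg8, and humanized minus knock-out was -0.22 for Ebp and -0.15 for Abca1. The effect on day 119 minus the dosing-day mean was -1.19 for Sqle and -0.83 for Msmo1 in wild type, and -0.43 for Mvk and -1.06 for Msmo1 in humanized liver. Day 91 minus day 1 was -0.40 for Ebp in knock-out (a call lost in 8 of 20 fits that left out 1 animal, in a fit of only the arrays compared and without the animals with high acinar markers) and 0.92 for Abcg5 in humanized liver. The Abcg5 call was lost in 9 of 19 fits that left out 1 animal and in several of the alternative settings.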

How the results depend on the processing

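In wild type on day 1 the count was 0 without the animals with high acinar markers (16 with all), where 1 control is left. In humanized liver on day 1 it was 2 (6 with all arrays) when only the compared arrays were fitted and 2 without the acinar animals. For humanized against wild-type effects it was 1 with probe sets averaged (0 with the brightest set). Leaving out 1 animal at a time gave 5 to 9 for the knock-out dosing-day mean, 2 to 9 for humanized day 1, and 0 to 2 for humanized against wild-type effects. Sc5d in humanized against wild-type controls reversed to -0.0312 (adjusted p = 0.744) with probe sets averaged. The cause was not tested. Counts of single days moved as well: leaving out 1 animal gave 2 to 9 for knock-out day 1, 2 to 13 for wild-type day 14, 2 to 7 for humanized day 14, 0 to 3 for wild-type day 28 and 3 to 15 for treated humanized livers, day 91 against day 1. A fit of only the compared arrays gave 2, 2, 10, 0 and 3 for the same comparisons. Within 1.5 times were the following, where leaving out 1 animal gave 15 to 16 for the wild-type mean, 9 to 11 for the humanized mean, 14 to 16 for wild-type day 1, 3 to 6 for knock-out against wild-type effects, and 15 to 16 and 13 to 14 for the knock-out and humanized controls. Of 153 calls of single genes, 146 held under quantile normalization, 138 without the dim filter, 137 with averaged probe sets, 126 with only the compared arrays, 148 without arrays 4019 and 4024, 151 with 6026 and 6030 as separate samples, 150 with another variance prior, 112 without the acinar animals and 147 with the acinar covariate. No paired analysis was possible because each animal number occurs in 1 group. Groups of 3 to 5 animals limit the single days, and dim probe sets give no measure of small changes.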
